A study of Mus musculus with 6 samples.

Results

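Regulators and markers of the osteoclast, 10 genes in all, were followed in Raw264.7 macrophages after knockdown of *Etv5*. They were chosen by gene symbol as *Tnfrsf11a*, *Nfatc1*, *Acp5*, *Ctsk*, *Dcstamp*, *Ocstamp*, *Calcr*, *Oscar*, *Spp1* and *Mitf*, and all 10 were found among the 24786 gene symbols of the expression table. Polyadenylated RNA was sequenced from cells infected with lentivirus expressing either a negative control hairpin (3 libraries, sh-NC) or a hairpin directed at *Etv5*, an ETS family transcription factor (3 libraries, sh-Etv5). Raw264.7 is a mouse line established from a tumor induced by Abelson murine leukemia virus, and cultures of it are widely used as osteoclast precursors. The labels of both groups name the same strain, C57BL/6, and the same age, postnatal day 21. How a strain and an age apply to an established line is not stated. No osteoclast-inducing ligand in the medium is named in the labels. The labels place the measurements 24 or 48 h after infection, whereas the study's text describes the sequenced cells as stable and its methods describe further culture and passage of infected cells in puromycin, so the time between infection and RNA collection is uncertain. Which of the designed shRNAs was sequenced is not given in the sources used here. Both groups come from 1 cell line, and no label says whether the 3 libraries of a group were separate infections, so the p-values measure the spread between these libraries, which may be technical.

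Osteoclasts are multinucleated cells that form by fusion of macrophage-lineage precursors and dissolve bone. The receptor RANK, encoded by *Tnfrsf11a*, and the M-CSF receptor start the program, immunoreceptor adaptors with ITAM motifs supply a calcium signal, and NFATc1 then acts as its master transcription factor together with MITF and PU.1. Fusion requires DC-STAMP and OC-STAMP, and the mature cell resorbs bone with a proton pump, cathepsin K (*Ctsk*) and tartrate-resistant acid phosphatase (*Acp5*). Osteopontin, the product of *Spp1*, is a secreted phosphoprotein that binds integrins and CD44 and anchors osteoclasts to mineral. It is also made in quantity by activated macrophages, so its transcript alone does not mark an osteoclast.

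The sequence next to the transcription start of *Spp1* is shown because *Spp1* is the most abundant of the 10 genes and because ETS factors recognize a GGAA core. The windows are the 250 bases before an annotated start, taken from RefSeq on GRCm38.p6 and written 5′ to 3′ on the strand of the gene. Capitals mark each GGAA core, which reads TTCC when it lies on the opposite strand. The *Tnfrsf11a* window is given for comparison. The first *Spp1* window is chr5:104434861-104435110, the second, which lies within an intron of the gene, is chr5:104435942-104436191, and the *Tnfrsf11a* window is chr1:105780473-105780722, all on the plus strand.
Spp1, first start: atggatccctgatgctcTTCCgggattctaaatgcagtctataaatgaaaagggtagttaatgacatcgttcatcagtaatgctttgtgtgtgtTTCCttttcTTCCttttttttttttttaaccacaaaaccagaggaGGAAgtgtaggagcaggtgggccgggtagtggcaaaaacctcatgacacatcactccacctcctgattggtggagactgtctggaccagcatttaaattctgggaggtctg
Spp1, second start: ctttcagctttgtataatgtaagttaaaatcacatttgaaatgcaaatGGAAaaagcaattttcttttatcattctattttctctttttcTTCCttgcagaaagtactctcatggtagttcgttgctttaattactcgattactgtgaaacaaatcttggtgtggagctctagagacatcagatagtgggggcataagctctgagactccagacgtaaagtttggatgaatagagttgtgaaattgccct
Tnfrsf11a: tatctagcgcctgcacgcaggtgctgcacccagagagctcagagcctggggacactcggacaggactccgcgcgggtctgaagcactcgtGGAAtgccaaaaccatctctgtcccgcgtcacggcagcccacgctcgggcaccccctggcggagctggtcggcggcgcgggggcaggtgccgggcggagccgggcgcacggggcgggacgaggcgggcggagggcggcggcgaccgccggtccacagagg

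RefSeq windows of 7 of the 10 genes were used, 13 windows in all. *Dcstamp*, *Ocstamp* and *Nfatc1* had no window searched, *Nfatc1* because its chromosome was left out of the search. The *Spp1* windows held 4 and 2 GGAA cores, and the *Tnfrsf11a* window held 1. The *Oscar* window held 6, the *Mitf* windows 3, 2 and 2, and the *Ctsk* window 2. The *Acp5* windows held 1, 1 and 3, and the *Calcr* windows 0 and 3. The longer form AGGAAG, which contains GGAA, occurred 2 times and 1 time in the *Spp1* windows, 2 times in that of *Ctsk* and 1 time in that of *Oscar*, and it was not found in the windows of *Tnfrsf11a*, *Acp5*, *Calcr* or *Mitf*. Among all 32851 windows of the same length, 93.4% held GGAA and 29.5% held AGGAAG on either strand. Other words were also searched on both strands. The NFAT core TGGAAA, which also contains GGAA, was present in 18.6% of all windows, the AP-1 word TGANTCA in 6.75%, and the E-boxes CACGTG and CATGTG, which MITF can bind, in 6.02% and 12.3%. TGANTCA and CACGTG were in none of the 13 windows searched. TGGAAA was in the second *Spp1* window and in 1 window each of *Mitf*, *Oscar* and *Acp5*. CATGTG was in 1 window each of *Oscar* and *Acp5*. The letters are a description of the windows only, since no binding was measured in these libraries and the words were chosen after the expression values had been seen.

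The summed RPKM (reads scaled to gene length and to mapped reads) of the 6 libraries ranged from 320462 to 340257, and the read depth is unknown. Correlations of log2(RPKM + 1) across the tested genes, which are not independent replicates, were 0.9957 to 0.9973 within groups and 0.9134 to 0.9150 between groups. *Etv5* itself was at 9.18, 9.89 and 9.39 RPKM in sh-NC and at 5.19, 4.91 and 5.28 RPKM in sh-Etv5, a fall of 46.0% in the mean (log2 fold change -0.78, limma adjusted p = 2.74e-07). All 8 macrophage markers examined were at 1 RPKM or above in every library, with a summed level of 4414 to 4523 RPKM in sh-NC and 3444 to 3559 RPKM in sh-Etv5. Single genes of this list moved in both directions, as given under the other observations. Osteoblast and stromal markers were all under 1 RPKM (7 of 7), with a sum of 0.531 to 0.636 RPKM in sh-NC and 0.844 to 1.25 RPKM in sh-Etv5, and *Col1a2* was listed at 0 throughout. All 4 lymphoid markers were under 1 RPKM. The summed dendritic cell markers lay between 2.49 and 2.92 RPKM in sh-NC and between 0.569 and 0.639 RPKM in sh-Etv5. In group means *Itgax* fell from 1.85 to 0.311 RPKM and *Zbtb46* from 0.756 to 0.148 RPKM. *Xcr1* went the other way, from 0.0444 to 0.138 RPKM, and *Flt3* was near 0. The summed neutrophil markers lay between 0.123 and 0.491 RPKM in sh-NC and between 15.6 and 19.7 RPKM in sh-Etv5. Of these, *S100a8* alone exceeded 1 RPKM, and *Elane*, *Ly6g* and *S100a9* were listed at 0. The part of these cell types in the results was not tested. In bulk RNA, fewer cells of a type and less RNA per cell cannot be told apart.

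Between sh-NC and sh-Etv5 the osteoclast genes differed in both directions. *Spp1* and *Acp5* rose by a similar ratio of means, although they stood at opposite ends of the expression range, whereas the fusion gene *Dcstamp*, the transcription factors *Mitf* and *Nfatc1* and the receptor *Tnfrsf11a* fell. *Ctsk*, *Ocstamp*, *Calcr* and *Oscar*, which mark the maturing or mature osteoclast, were below 1 RPKM in all 6 libraries. Of the 10 genes, 6 therefore entered the test across 10738 genes, and 2 were called higher and 4 lower by limma (adjusted p under 0.05). Over all tested genes 33.3% were called higher and 41.0% lower, so a call in either direction was common in this comparison. A log2 fold change above 1 was reached by *Spp1* and *Acp5*, against 6.23% of all tested genes, and a log2 fold change below -1 by *Dcstamp* and *Mitf*, against 3.0%. The 3 libraries of one group did not overlap those of the other for all 6 tested genes, as for 76.4% of all tested genes. *Acp5* passed the low-value filter only through the sh-Etv5 libraries.

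**Figure D1:**
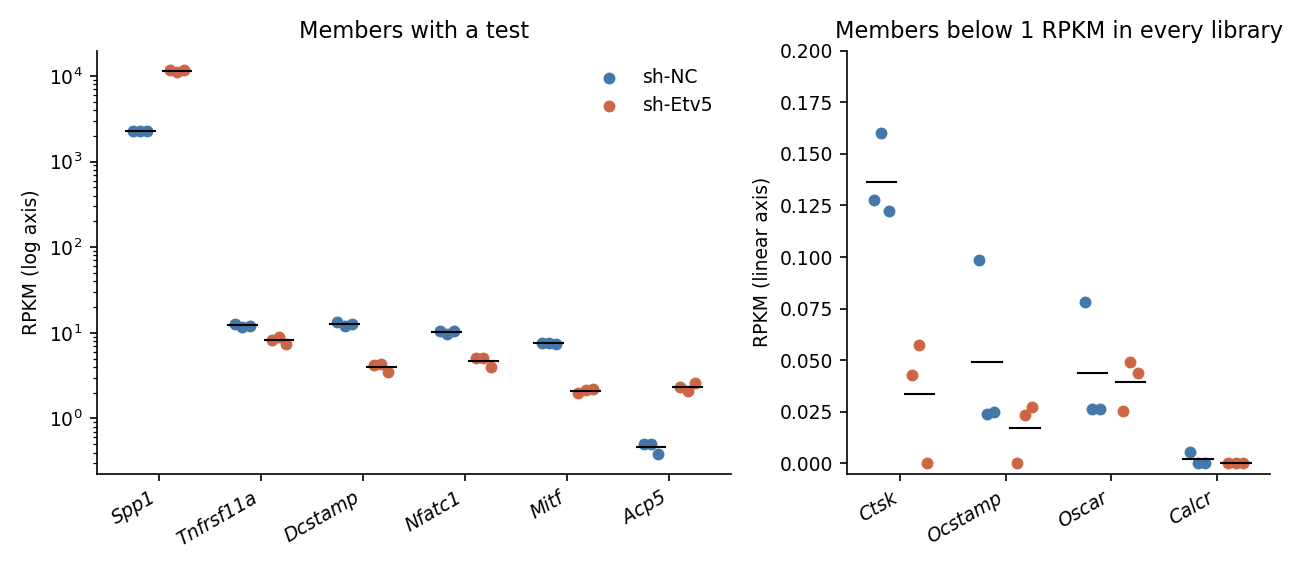
RPKM of the 10 genes in each of the 3 sh-NC (blue) and 3 sh-Etv5 (orange) libraries, with the 6 tested genes on a log axis at left, the 4 genes below 1 RPKM on a linear axis at right, and black lines at the group means. *Spp1* lies far above every other gene in both groups, and the groups do not overlap for any tested gene.

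**Figure D2:**
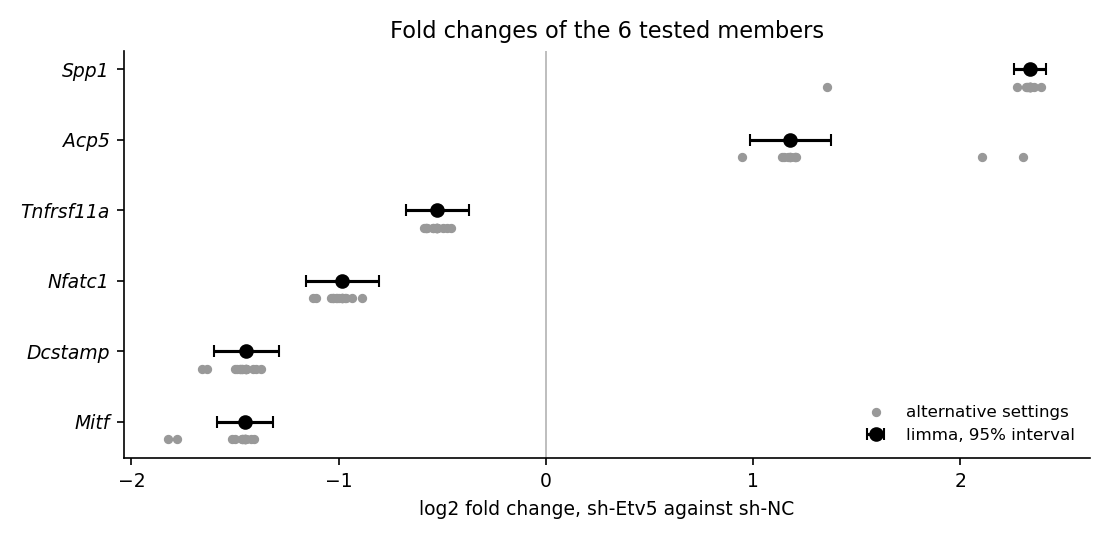
Log2 fold change of log2(RPKM + 1), sh-Etv5 against sh-NC, for the 6 tested genes (black points, limma estimate with its 95% confidence interval), and the estimates under the alternative settings (grey points). No estimate crosses 0, and the grey point of *Spp1* that stands apart, at 1.36, is the one after quantile normalization.

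*Spp1* was the most abundant osteoclast-related transcript in sh-NC and the most abundant transcript of any gene in sh-Etv5. Its level was 2290, 2275 and 2264 RPKM in sh-NC and 11615, 11157 and 11721 RPKM in sh-Etv5. The groups were far apart, and the libraries of each group lay close together. The mean rose 5.05-fold, from 2276 ± 13.1 to 11497 ± 300 RPKM (SD, n = 3 each), with a log2 fold change of 2.34 (SE 0.0346, 95% confidence interval 2.26 to 2.41, limma adjusted p = 6.89e-13). In rank, *Spp1* moved from the fifth place in every sh-NC library (rank 5), where the highest gene was *Eef1a1*, a translation elongation factor, to rank 1 in every sh-Etv5 library. There it stood 2.75 to 2.79 times above the next gene, *Fth1*, the ferritin heavy chain.

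The rise changed the make-up of the libraries. *Spp1* took 0.708% ± 0.00156 of the summed RPKM in sh-NC and 3.43% ± 0.0447 in sh-Etv5 (SD, n = 3 each). The difference of 9221 RPKM between the group means was the largest of any gene. Among the rises it was followed by *Ccl3*, a chemokine, with 2614 RPKM and by *Fth1* with 2128 RPKM. On the log2(RPKM + 1) scale, which compresses the change of low genes, *Spp1* was less exceptional, with rank 113 among the rises of the tested genes. The summed RPKM of sh-Etv5 exceeded that of sh-NC by 14040 on average, and by 4819 once *Spp1* was left out.

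Most scalings left the log2 fold change of *Spp1* near the 2.34 of the main fit. It was 2.27 with equal RPKM sums, 2.31 with equal sums without *Spp1* and 2.39 with equal medians. Quantile normalization, which gives every library the same set of values, lowered the log2 fold change to 1.36 (limma adjusted p = 1.05e-13), because the highest values of all libraries are then made equal. The gene lies on the plus strand at chr5:104435118-104441050 (GRCm38), where 18.75% of its exon bases overlap *Gm42793* on the same strand, and the part of those shared reads in the values was not tested.

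**Figure D3:**
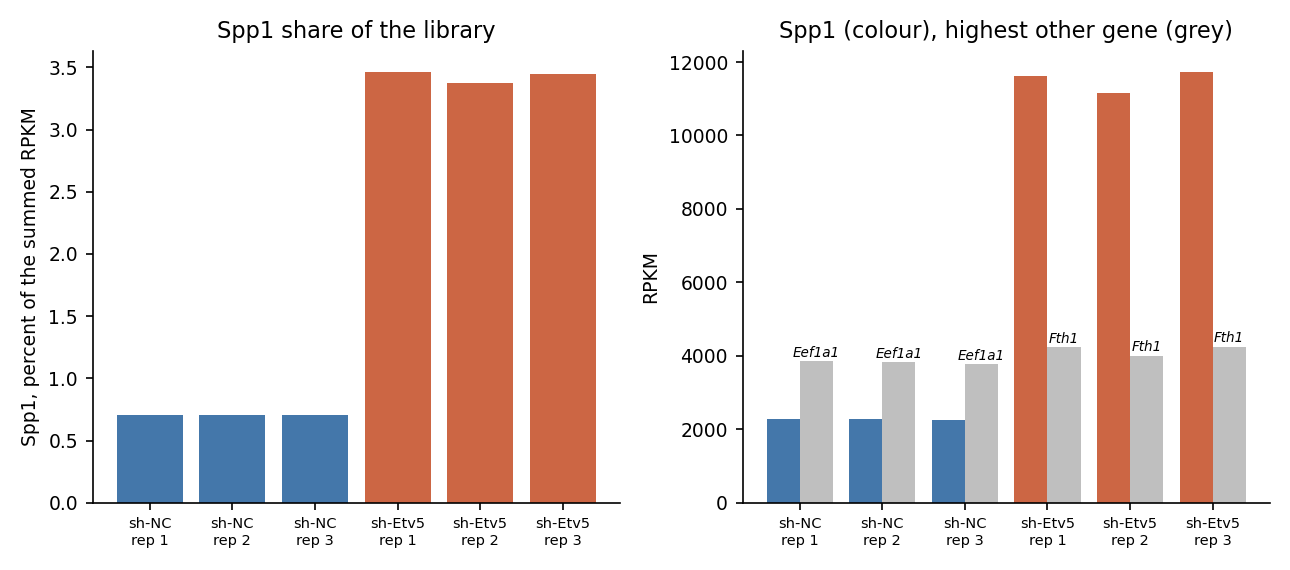
Left, *Spp1* as a percent of the summed RPKM of each library; right, RPKM of *Spp1* (colored bars) beside the highest other gene (grey bars, named above them) in each library. *Spp1* is below *Eef1a1* in the 3 sh-NC libraries and above *Fth1* in the 3 sh-Etv5 libraries.

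The 5 genes whose profile over the 6 libraries was nearest to that of *Spp1* had root mean square differences of 0.0523 to 0.0613 on the log2 scale after centering. They were, from nearest, *Gpr18*, a G protein-coupled receptor, *Odc1*, which makes polyamines, *Zfp36* and *Zc3h12a*, which both promote decay of cytokine mRNAs, and *Pim2*, a kinase. Their log2 fold changes of log2(RPKM + 1) lay between 2.24 (*Odc1*) and 2.43 (*Zfp36*), around the 2.34 of *Spp1*. That scale understates the change of a low gene. *Gpr18* passed the low-value filter only through the sh-Etv5 libraries. It went from 0.484 to 6.29 RPKM, a larger ratio of means than the 5.05 of *Spp1*. The ratio was 6.02 for *Pim2*, 5.98 for *Zc3h12a*, 5.63 for *Zfp36* and 4.74 for *Odc1*. With 6 libraries in 2 groups, the likeness of these profiles is set largely by the size of the group difference on that scale.

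The receptors of osteopontin moved apart from each other. Of 8 receptor genes, 6 were tested, of which 2 were higher and 3 lower, with a median log2 fold change of -0.14. For this and each list that follows, the shares over all tested genes were 33.3% higher and 41.0% lower, and their median was -0.05. *Itga5*, the fibronectin receptor chain that also binds osteopontin, rose from 14.3 to 43.9 RPKM (log2 fold change 1.55), and *Cd44* rose from 23.9 to 34.8 RPKM (0.52). The integrin chain *Itga4* fell from 200.4 ± 4.77 to 16.7 ± 1.20 RPKM (SD, n = 3 each), which is -3.51 on the log2 scale. *Itga4* stood at 195 to 203 RPKM in sh-NC and at 16.0 to 18.1 RPKM in sh-Etv5, and 8.04% of its exon bases overlap *Cerkl* on the opposite strand. *Itgb5*, which shares 7.25% of its 50-base words with *Gm38317*, fell from 9.28 to 7.50 RPKM (-0.28). The chains of the classical osteopontin receptor of osteoclasts gave no call, with *Itgav* at 11.8 and 10.9 RPKM (limma adjusted p = 0.0661) and *Itgb3* below 1 RPKM in every library. Every sh-Etv5 library had less *Itgav* than every sh-NC library, and *Itgav* was called lower under 2 of 4 other scalings. The other genes of the SIBLING family, a cluster of mineral-binding proteins next to *Spp1*, were *Ibsp*, *Dmp1*, *Mepe* and *Dspp*, and all 4 were near 0, with group means of at most 0.0707 RPKM.

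*Tnfrsf11a*, the receptor for RANK ligand, was expressed in both groups and fell moderately. It measured 12.7, 11.8 and 12.1 RPKM in sh-NC and 8.22, 9.04 and 7.34 RPKM in sh-Etv5. Every sh-Etv5 library was below every sh-NC library. With means of 12.2 ± 0.465 and 8.20 ± 0.850 RPKM (SD, n = 3 each), the level fell by 32.8%, with a log2 fold change of -0.52 (SE 0.0687, 95% confidence interval -0.68 to -0.37, limma adjusted p = 3.53e-05). This was the smallest change among the tested osteoclast genes, with rank 1497 among the log2 falls of all tested genes. The gene lies at chr1:105780718-105847981 on the plus strand.

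The ligand of this receptor and its soluble decoy were not detected. *Tnfsf11*, which encodes RANK ligand, and *Tnfrsf11b*, which encodes its decoy receptor osteoprotegerin, were listed at 0 in all 6 libraries. Among 19 RANK and M-CSF signaling genes 16 were tested, with 7 higher, 7 lower and a median log2 fold change of 0.12. The M-CSF receptor *Csf1r* fell from 428 ± 4.56 to 244 ± 6.72 RPKM (-0.81), and the adaptor *Traf3* fell from 8.75 to 6.27 RPKM (-0.42). On the rising side, *Sqstm1*, the p62 scaffold that binds TRAF6, went from 108 to 977 RPKM (3.17), and *Gab2*, an adaptor of RANK, from 4.38 to 10.2 RPKM (1.06). Opposite-strand genes overlap 15.1% of the exon bases of *Csf1r* and 17.3% of those of *Sqstm1*.

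*Oscar*, the collagen receptor that couples to the ITAM adaptor FcRγ, could not be compared at these levels. It was at 0.0783, 0.0262 and 0.0263 RPKM in sh-NC and at 0.0254, 0.0492 and 0.0436 RPKM in sh-Etv5, and the groups overlapped. In the fit without the low-value filter its limma adjusted p was 1. The calcium arm was expressed, by contrast, and all 17 of its listed genes were tested, with 4 higher, 10 lower and a median log2 fold change of -0.28. *Trem2*, the lipid receptor that pairs with DAP12, fell from 169 ± 4.71 to 49.6 ± 2.40 RPKM (log2 fold change -1.75), and the kinase *Tec* fell from 15.9 to 9.99 RPKM (-0.62). The kinase *Syk* rose from 14.9 to 28.9 RPKM (0.91), and *Ppp3cc*, a calcineurin catalytic chain, rose from 5.54 to 8.12 RPKM (0.48). The adaptors themselves, named after their values were seen, went in opposite directions, with *Tyrobp* (DAP12) falling from 361 to 254 RPKM and *Fcer1g* (FcRγ) rising from 271 to 379 RPKM.

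*Nfatc1*, the master transcription factor of osteoclast formation, fell by 54.0%. Its level was 10.6, 9.80 and 10.5 RPKM in sh-NC and 5.10, 5.11 and 4.02 RPKM in sh-Etv5. The lowest control library was well above the highest knockdown library. The means were 10.3 ± 0.436 and 4.74 ± 0.628 RPKM (SD, n = 3 each), with a log2 fold change of -0.98 (SE 0.0797, 95% confidence interval -1.16 to -0.81, limma adjusted p = 6.82e-07). Both other NFAT genes on the list, named after their values were seen, fell less on this scale, with *Nfatc2* going from 6.07 to 4.34 RPKM (-0.41) and *Nfatc3* from 15.7 to 12.7 RPKM (-0.29). The differences between these falls were not tested.

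*Mitf*, which encodes a basic helix-loop-helix factor that acts on *Acp5*, *Ctsk* and *Oscar* in osteoclasts, had the tightest libraries of the falling genes. It measured 7.52, 7.55 and 7.48 RPKM in sh-NC against 1.99, 2.17 and 2.19 RPKM in sh-Etv5. The groups were separated by more than 5 RPKM. With means of 7.52 ± 0.0379 and 2.12 ± 0.109 RPKM (SD, n = 3 each), *Mitf* fell by 71.8%, with a log2 fold change of -1.45 (SE 0.0612, 95% confidence interval -1.59 to -1.32, limma adjusted p = 3.25e-09). Its locus, chr6:97807052-98021349 on the plus strand, holds 8 annotated transcripts from several starts, and a value per gene cannot tell the isoforms apart.

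Within the MiT family of 4 genes the levels and the changes were unequal. *Tfeb*, the lysosomal regulator, was at 4.83, 4.16 and 4.77 RPKM in sh-NC and at 1.76, 1.74 and 1.55 RPKM in sh-Etv5, which is -1.06 on the log2 scale (limma adjusted p = 2.34e-07). *Tfe3*, named after its values were seen, was the most abundant member in both groups and went from 23.1 to 20.7 RPKM (-0.15, limma adjusted p = 0.0175), a call that was lost under at least 1 other scaling. *Tfec* was listed at 0 in all sh-NC libraries and was at most 0.0886 RPKM in sh-Etv5.

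**Figure D4:**
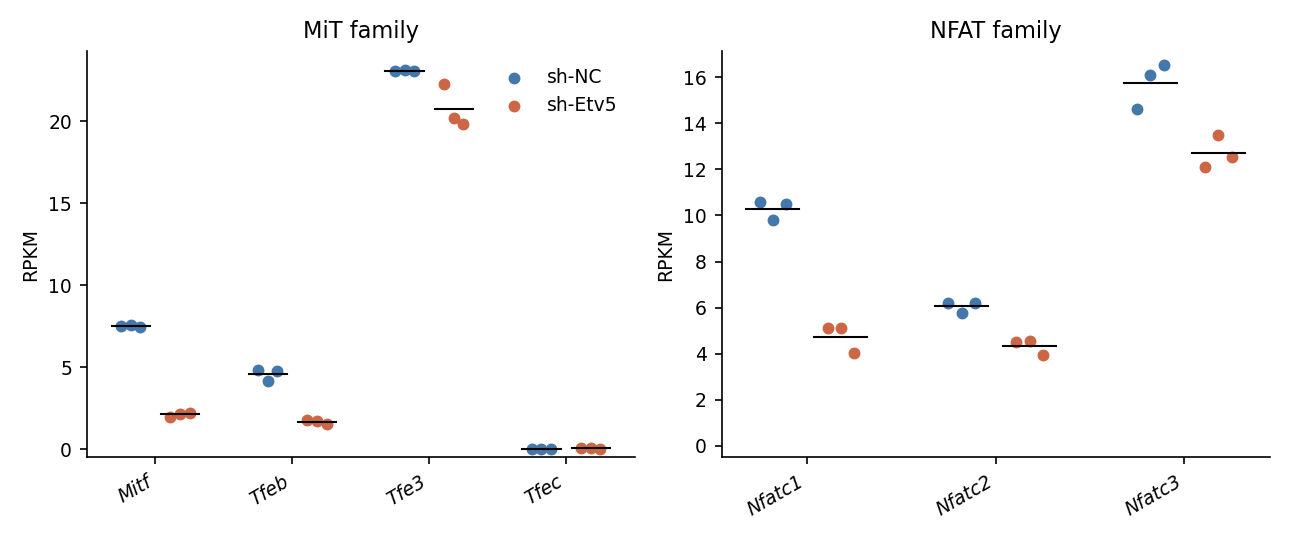
RPKM of the MiT family (left) and of the NFAT genes examined (right) in the 3 sh-NC (blue) and 3 sh-Etv5 (orange) libraries, with black lines at the group means. *Mitf*, *Tfeb* and *Nfatc1* are clearly lower in sh-Etv5, while *Tfe3* and *Nfatc3*, the highest genes of their panels, change less.

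Other activators of osteoclast genes moved in both directions, more of them upward. Of 14 listed activators 11 were tested, of which 8 were higher and 3 lower, against 33.3% higher and 41.0% lower among all tested genes, with a median log2 fold change of 0.60. The 6 tested AP-1 genes, grouped after their values were seen, were all among the higher ones. *Fosl1* rose from 6.17 to 31.1 RPKM (2.16), although 57.2% of its exon bases overlap *Ccdc85b* on the opposite strand. For *Myc* the level was 0.341 ± 0.0394 RPKM in sh-NC and 11.96 ± 0.194 RPKM in sh-Etv5 (SD, n = 3 each; 3.27), so it passed the filter through sh-Etv5 alone. *Spi1*, which encodes PU.1 and was named after its values were seen, was at 163 and 181 RPKM (0.15), a call that another scaling removed. *Creb1* fell from 7.53 to 5.51 RPKM (-0.39).

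Genes known to hold back the osteoclast program showed no common direction, with 3 higher, 2 lower and 3 without a call among 8 tested and a median log2 fold change of 0.10. *Irf8*, whose loss favors osteoclast formation, rose from 25.9 ± 0.904 to 47.4 ± 0.927 RPKM (0.85), and *Bcl6* rose from 9.31 to 11.4 RPKM (0.27). *Id3* fell from 53.4 to 29.4 RPKM (-0.84) and *Ikzf1* from 24.7 to 18.01 RPKM (-0.44).

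*Dcstamp*, the membrane protein required for fusion of precursors, had the highest mean after *Spp1* among the 10 genes in the control cells and fell by 68.3%. It measured 13.2, 12.1 and 12.5 RPKM in sh-NC and 4.19, 4.30 and 3.51 RPKM in sh-Etv5. No sh-Etv5 library came near the control range. The mean went from 12.6 ± 0.569 to 4.002 ± 0.428 RPKM (SD, n = 3 each), with a log2 fold change of -1.45 (SE 0.0709, 95% confidence interval -1.60 to -1.29, limma adjusted p = 1.05e-08). The gene lies at chr15:39745930-39760938 on the plus strand. Its partner *Ocstamp* was at 0.0985, 0.0240 and 0.0248 RPKM in sh-NC and at 0, 0.0232 and 0.0275 RPKM in sh-Etv5. These values overlapped, and the limma adjusted p without the filter was 0.502.

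*Atp6v0d2*, the proton pump subunit that is also needed for fusion, fell just short of the filter and was named after its values were seen. It measured 0.920, 0.883 and 1.08 RPKM in sh-NC and 0.0429, 0.0180 and 0.0621 RPKM in sh-Etv5, without overlap. Its limma adjusted p in the fit without the filter was 0.000222. The other fusion genes included 4 that rose and 2 that fell among 7 tested, with a median log2 fold change of 0.52. *Cd47*, the ligand of SIRPα, rose from 22.1 to 51.0 RPKM (1.17), and the metalloprotease *Adam8* rose from 108 to 218 RPKM (1.01). The tetraspanin *Cd9*, of whose exon bases 10.7% overlap a gene on the opposite strand, fell from 241 to 166 RPKM (-0.53), and *Sirpa* fell from 78.3 to 67.9 RPKM (-0.20).

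*Acp5*, the tartrate-resistant acid phosphatase used as a stain for osteoclasts, rose 5.00-fold at a low level. It was at 0.506, 0.507 and 0.380 RPKM in sh-NC and at 2.31, 2.07 and 2.58 RPKM in sh-Etv5. All control libraries were under 1 RPKM and all knockdown libraries above 2 RPKM. The means were 0.464 ± 0.0730 and 2.32 ± 0.258 RPKM (SD, n = 3 each), with a log2 fold change of 1.18 (SE 0.0887, 95% confidence interval 0.98 to 1.38, limma adjusted p = 3.55e-07). The log2(RPKM + 1) scale understates the change of a gene this low, and a pseudocount of 0.01 gave 2.30. The gene is at chr9:22126727-22135711 on the minus strand, where 6.75% of its exon bases overlap a transcript on the opposite strand.

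*Ctsk*, the collagen-degrading protease of the mature osteoclast, went the other way at a still lower level. It was at 0.127, 0.160 and 0.122 RPKM in sh-NC and at 0.0429, 0.0574 and 0 RPKM in sh-Etv5. The groups did not overlap, and the fit without the filter put the difference at -0.14 on the log2 scale (limma adjusted p = 0.0180). That call was lost without sh-NC replicate 1 (limma adjusted p = 0.0563), sh-NC replicate 2 (0.0594) or sh-Etv5 replicate 1 (0.0526). *Calcr*, the calcitonin receptor, was at 0.00565 RPKM in 1 sh-NC library and listed at 0 in the other 5 libraries.

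Of 14 genes for acid secretion, attachment and matrix breakdown, 9 were tested. Of these, 5 were higher and 2 lower, with a median log2 fold change of 0.23. The proton pump subunit *Tcirg1* rose from 73.1 to 129 RPKM (0.81), and the endosomal sorting protein *Snx10* rose from 16.9 to 27.1 RPKM (0.65). Carbonic anhydrase 2, encoded by *Car2*, which supplies the protons, fell from 216 ± 2.31 to 115 ± 5.73 RPKM (-0.90), and *Plekhm1*, a lysosome trafficking factor with 5.60% of its exon bases under an opposite-strand gene, fell from 35.4 to 21.6 RPKM (-0.69). The 5 genes not tested were below 1 RPKM in all libraries. They were *Src*, *Slc9b2*, the integrin chain *Itgb3* and the matrix metalloproteases *Mmp9* and *Mmp14*.

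The falls and rises changed the order of the osteoclast genes by level. In sh-NC, *Spp1* was followed by *Dcstamp* and *Tnfrsf11a*, whose libraries overlapped, then by *Nfatc1*, *Mitf* and, far lower, *Acp5*, *Ctsk*, *Ocstamp*, *Oscar* and *Calcr*, of which *Ocstamp* and *Oscar* overlapped. In sh-Etv5, *Tnfrsf11a* came second, *Nfatc1* and *Dcstamp* overlapped behind it, and *Acp5* overlapped with *Mitf*, although the same pair was far apart in sh-NC. The 4 lowest genes overlapped with their neighbors in that order.

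**Figure D5:**
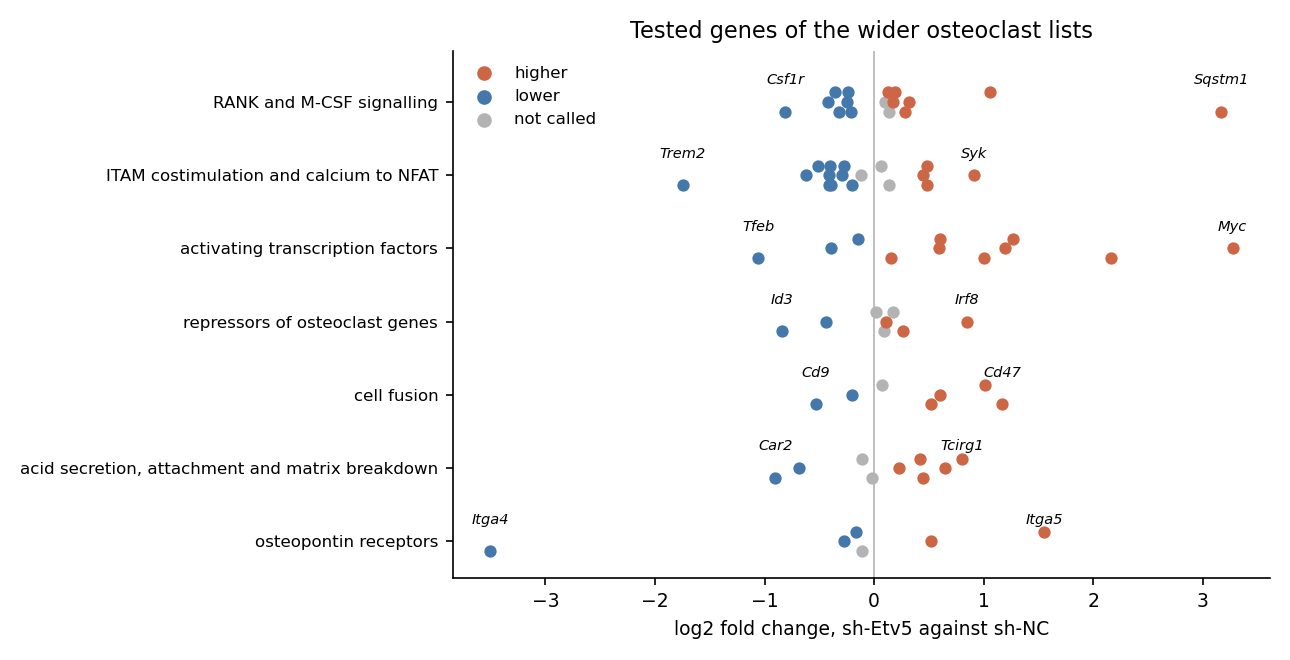
Log2 fold change of log2(RPKM + 1), sh-Etv5 against sh-NC, for each tested gene of the 7 osteoclast-related lists that had tested genes (orange, called higher; blue, called lower; grey, not called), with the largest called rise and fall of each list named. Every list holds called genes on both sides of 0.

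Over all 89 genes of the wider lists, each counted once, 72 were tested, of which 32 were higher, 29 lower and 11 not called, beside 33.3% higher and 41.0% lower among all tested genes. The median log2 fold change was 0.10 against -0.05 over all tested genes. All 61 called genes kept their direction under 4 other scalings of the libraries, and 55 were called under each of them, the exceptions being *Nfkb1*, *Cyld*, *Itpr3*, *Spi1*, *Tfe3* and *Id2*.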

How the data were processed

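Messenger RNA of 3 sh-NC and 3 sh-Etv5 Raw264.7 libraries was sequenced. The authors deposited RPKM values, 1 per gene symbol and library, without log transformation. The submitters' processing notes name the build mm10, and the aligner and annotation are not given in the sources used here. RPKM are already scaled to gene length and mapped reads, so a strongly rising gene such as *Spp1* can lower the values of others. Low values shared no common step, and read depth could not be recovered.

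A gene was tested when 3 or more of the 6 libraries reached an RPKM of 1 (10738 genes). Groups were compared on log2(RPKM + 1) by limma 3.58.1 (R 4.3.3, two-sided, eBayes with trend, no covariate), with calls at a Benjamini-Hochberg adjusted p below 0.05. With 3 libraries a group, an exact permutation test of 1 gene cannot go below p = 0.1. Genes under the filter were read from a fit without it. In a test on simulated data for this comparison (10738 genes), 54%, 82%, 96% and 100% of genes changed by 0.25, 0.5, 1 and 2 (log2) were recovered, with 13 false calls. The simulated noise was independent, and both groups were given each gene's spread in sh-NC. A wider spread in sh-Etv5 or an effect shared by the libraries of a group was not simulated, so these figures do not cover them. Coordinates and overlaps came from GENCODE release M21 (GRCm38), matched by symbol, and promoter windows from RefSeq (GRCm38.p6). Scripts ran in Python 3.11.15.

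The members and lists were chosen with earlier results of these data known. Genes named were the 10 members, *Etv5*, the 2 largest called rises and falls of each list, every gene of a list of 5 or fewer, and the 5 genes nearest to *Spp1* in profile. Others were named after their values were seen. Alternatives were a replicate block, each library left out, a fold threshold, equal RPKM sums, quantile normalization, eBayes without trend, other pseudocounts (0.1, 0.01) and other filters (none, or a mean RPKM of 5). Equal sums without *Spp1* and equal medians were added after the data were seen.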

Additional observations from a re-analysis of the deposited data

How the results depend on the processing

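*Spp1*, *Acp5*, *Tnfrsf11a*, *Nfatc1*, *Dcstamp*, *Mitf* and *Etv5* kept their direction and call under every alternative that tested them, other than the fold threshold. In the main fit *Tnfrsf11a*, *Nfatc1* and *Etv5* did not lie beyond that threshold. *Nfatc1* was close to it there, at -0.98, and a pseudocount of 0.1 put it at -1.11. The log2 fold change of *Spp1* ranged from 1.36 to 2.39, that of *Acp5* from 0.95 to 2.30, *Tnfrsf11a* from -0.59 to -0.46, *Nfatc1* from -1.13 to -0.89, *Dcstamp* from -1.66 to -1.37 and *Mitf* from -1.82 to -1.41. The number of osteoclast genes called higher fell from 2 to 1 with a mean RPKM of at least 5, where *Acp5* was not tested, and ranged from 1 to 2 when single libraries were left out, since *Acp5* misses the filter without any sh-Etv5 library. With a log2 fold change beyond 1 as a further condition, 2 of the 10 genes were lower (4 without it), and in the wider lists 10 genes were higher (32 without it) and 3 lower (29 without it). *Oscar* changed sign with single libraries left out, between -0.0174 and 0.0184 (0.00430 without sh-Etv5 replicate 1), with no call. Equal RPKM sums moved the median log2 fold change of all genes from -0.05 to -0.10. Deviations of same-numbered libraries correlated at 0.0739, -0.0710 and -0.0352. With 3 libraries a group, these values cannot show whether same-numbered libraries were handled together. The fit with the replicate block gave 2 osteoclast genes higher and 4 lower, and a log2 fold change of 2.34 for *Spp1*. RPKM without depth allow no counting interval for genes below 1 RPKM.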

Other observations

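The macrophage markers, examined as a check of the cell type, moved in both directions. *Adgre1*, which encodes F4/80, rose from 2.60 to 11.3 RPKM, *Itgam*, the CD11b chain, rose from 33.8 to 127 RPKM, and *Cd14* rose from 628 to 745 RPKM. *Lyz2*, which encodes lysozyme, fell from 2834 to 2041 RPKM, *Cd68* fell from 365 to 246 RPKM, and *Mpeg1* and *Fcgr1* fell as well, with *Csf1r* as given above (limma adjusted p at most 4.58e-05 for all 8). *S100a8*, a calcium-binding protein listed as a neutrophil marker, rose from 0.306 to 17.1 RPKM, while its partner *S100a9* and the neutrophil markers *Elane* and *Ly6g* were listed at 0 in every library. *Itgax*, the CD11c chain, fell from 1.85 to 0.311 RPKM, while *Xcr1* of the same marker list rose from 0.0444 to 0.138 RPKM.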
